A study of Arabidopsis thaliana with 4 samples.

Results

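The genes IAA29, GH3.3 and WES1, the last of which is also called GH3.5, are auxin-inducible genes of Arabidopsis thaliana, and their transcript levels were read on 4 ATH1 oligonucleotide arrays of whole seedlings. They were picked out by gene symbol, with earlier results of these data known. Each is named by 1 probe set, so the description rests on 3 of 22746 probe sets. Of the arrays, 2 held RNA of a Col-0 line that the labels call a complete CDB1 knockout and 2 held RNA of Col-0 wild type. The study's title names a Polycomb binding protein, Polycomb being the machinery that keeps genes silent through histone modification. All seedlings were at developmental stage 1.02 and were grown on 1/2 MS10 medium with 16 h days at 20 °C and a humidity of 80%, with no auxin treatment in the labels, so the values are basal levels. The labels name no insertion allele, and no annotation used here ties CDB1 to a gene, so the loss of its transcript could not be checked. The labels do not say whether replicates are separate cultures, and p-values therefore reflect only how far these arrays scatter, which can be technical.

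Auxin acts by joining its TIR1/AFB receptors to Aux/IAA proteins, which are then degraded. Aux/IAA proteins hold the auxin response factors in check, so their loss lets auxin-responsive genes be transcribed. Among those genes are the Aux/IAA genes themselves and the GH3 genes, whose enzymes join free auxin to amino acids and thereby lower the active pool. Both families therefore form negative feedback, and their transcripts are commonly used as readouts of auxin response. IAA29 encodes an Aux/IAA repressor and is also known as a target of the PIF light-signalling factors, which raise it in shade and warmth. GH3.3 and WES1 encode auxin-amido synthetases, and WES1 is known as well for its response to stress and for activity on salicylic acid.

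Levels are given as MAS5 signals (arbitrary units), which the authors scaled so that each array has a trimmed mean near 100. A probe set was tested if its mean over the 4 arrays was at least 19.5, the 30th percentile, which left 15924 probe sets. The comparison used limma on log2(signal + 16), with Benjamini-Hochberg adjustment over all 15924 and a threshold of 0.05. On the same scale 51 probe sets passed, which is 0.320% of those tested (0.170% higher and 0.151% lower in the knockout). Replicates resembled each other about as much as arrays of opposite groups did, with a correlation across probe sets of 0.982 within the knockout, 0.977 within the wild type and 0.975 to 0.984 between them. Whole seedlings hold root and shoot, and markers of both were read. The summed signal of 3 root markers (EXPA7, EXPA18 and PYK10) was 2659 and 2976 in the knockout and 3046 and 2699 in the wild type, most of it from PYK10. EXPA7, a root hair gene, read 55.9 on both knockout arrays, against 28.7 and 50.3 in the wild type. EXPA18, of the same expansin family, read 58.5 and 60.9 in the knockout, against 51 and 49.5 in the wild type. Both were thus higher on each knockout array, while PYK10 overlapped. The summed signal of 2 green tissue markers (LHCB4.1 and RCA) was 4494 and 4493 in the knockout and 4190 and 3859 in the wild type, without overlap. Taken alone, LHCB4.1 did not overlap, while RCA did (2430 and 2685 in the knockout, 2672 and 2292 in the wild type). Over all tested probe sets, 15.0% did not overlap with the knockout higher. None of the 5 passed the limma test, in which EXPA7 had an unadjusted p of 0.0628 and LHCB4.1 one of 0.0301. The part of tissue makeup in the values of the auxin genes was not tested.

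None of the 3 genes changed past the test, and they did not share a direction. Each knockout array read higher than each wild type array for IAA29, while for GH3.3 and WES1 the groups overlapped. Their log2 fold changes, knockout minus wild type, were 0.33, 0.12 and -0.08. Since 0.320% of all tested probe sets passed, a count of 0 in 3 is not a result about these genes. At an unadjusted limma p of 0.05, which 5.24% of all tested probe sets passed, IAA29 alone of the 3 would have passed. Its unadjusted limma p was 0.0630 with no filter, 0.0502 with the filter at the 50th percentile and 0.0802 with the replicate block. The limma p stayed under 0.05 with quantile normalization (0.0361), median centring (0.0390) and eBayes without trend (0.0482). Pseudocounts of 1 and 64 gave an unadjusted limma p of 0.0461 and 0.04865. With 1 array left out, the log2 fold change of IAA29 ran from 0.23 to 0.44.

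**Figure D1:**
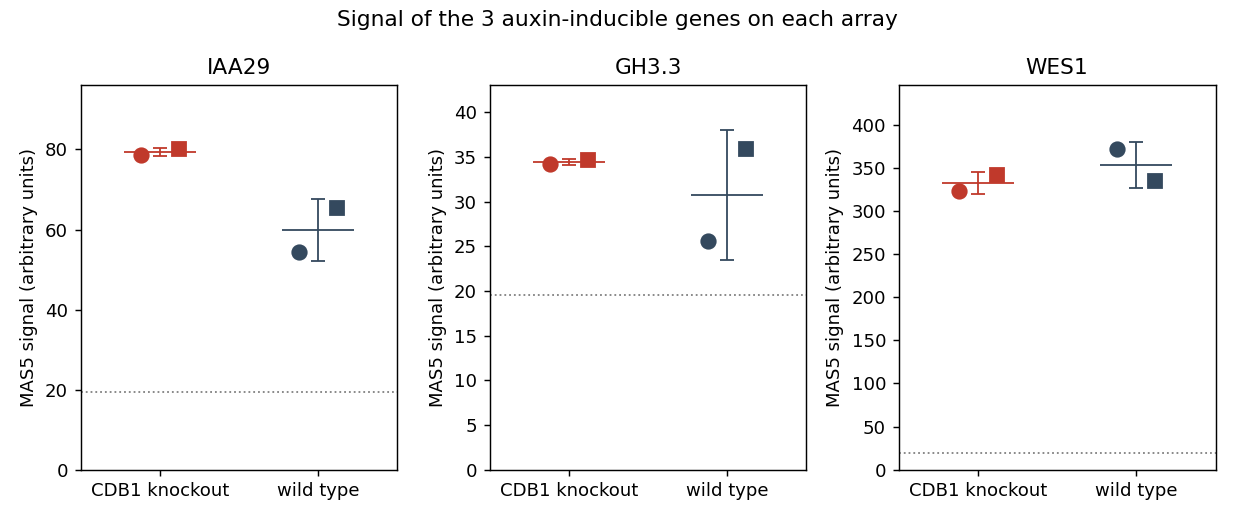
MAS5 signal (arbitrary units, each axis from 0) of IAA29, GH3.3 and WES1, with the 2 knockout arrays on the left and the 2 wild type arrays on the right of each panel. Circles are replicate 1 and squares replicate 2, the horizontal dash is the mean with its SD, and the dotted line is the brightness floor of 19.5. IAA29 lies at 78.7 and 80.1 in the knockout, above 54.4 and 65.3 in the wild type, and the groups overlap for GH3.3 and WES1.

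The repressor gene IAA29 (AT4G32280, chromosome 4) had signals of 78.7 and 80.1 on the knockout arrays, against 54.4 and 65.3 on the wild type arrays. Every knockout array was above every wild type array, and both groups were well above the brightness floor. The means were 79.4 ± 0.990 in the knockout and 59.9 ± 7.71 in the wild type (SD, n = 2 each). The log2 fold change was 0.33 (SE 0.149, 95% confidence interval 0.01 to 0.66), or 1.26-fold with an interval of 1.00 to 1.58 on the log2(signal + 16) scale. Its limma p was 0.0471 before and 0.938 after adjustment. The groups did not overlap, with the knockout higher, for 15.0% of all tested probe sets, and 6.68% had a change at least as large in either direction. An exact two-sided permutation test gave p = 0.333, the smallest that 2 arrays against 2 allow. In bulk seedlings a change in the number of cells that express a gene and a change in RNA per cell cannot be told apart.

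Within the groups, the spread of IAA29 lay mostly in the wild type. The knockout arrays differed by 0.02 on the log2 scale, and 92.5% of tested probe sets had a knockout gap at least as large. The wild type arrays differed by 0.21, a gap reached by 40.6% of tested probe sets. Wild type replicate 1 was the lowest of the 4 arrays. The knockout arrays exceeded it by 0.43 and 0.45 on the log2 scale, and exceeded wild type replicate 2 by 0.22 and 0.24. With wild type replicate 1 left out the log2 fold change was 0.23, and with wild type replicate 2 left out it was 0.44.

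GH3.3 (AT2G23170, chromosome 2) was the dimmest of the 3 relative to the floor. Its signals were 34.2 and 34.7 on the knockout arrays, against 25.6 and 35.9 on the wild type arrays. The wild type arrays held both the highest and the lowest value, with the knockout arrays between them. The means were 34.5 ± 0.354 in the knockout and 30.8 ± 7.28 in the wild type (SD, n = 2 each). The log2 fold change was 0.12 (SE 0.174, 95% confidence interval -0.27 to 0.50, limma adjusted p = 0.998). These arrays thus leave room for a change between 0.832-fold and 1.42-fold in signal + 16. With a pseudocount of 1 instead of 16 the log2 fold change was 0.18 (SE 0.254), so the room in the signal itself is wider. The exact permutation test gave p = 1.

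The sign of GH3.3 rested on wild type replicate 1. Against that array the knockout arrays were higher by 0.27 and 0.29 on the log2 scale, while against wild type replicate 2 their differences were -0.05 and -0.03. Without wild type replicate 1 the log2 fold change was -0.041, and without wild type replicate 2 it was 0.28. The wild type gap of 0.32 on the log2 scale was reached by 21.3% of tested probe sets, and the knockout gap of 0.01 was reached by 94.9%.

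WES1 (AT4G27260, chromosome 4) was far above the floor and was the steadiest of the 3 genes over the arrays. Its signals were 323.5 and 341 on the knockout arrays, against 371.6 and 334.5 on the wild type arrays. The groups overlapped, since knockout replicate 2 was above wild type replicate 2. The means were 332 ± 12.4 in the knockout and 353 ± 26.2 in the wild type (SD, n = 2 each). The log2 fold change was -0.08 (SE 0.136, 95% confidence interval -0.38 to 0.22, limma adjusted p = 0.998). This leaves room for a change between 0.768-fold and 1.16-fold in signal + 16. The exact permutation test gave p = 0.667. The highest signal was 1.15 times the lowest, against 1.40 times for GH3.3 and 1.47 times for IAA29.

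Set side by side, the 3 genes did not agree in direction. The signal on a knockout array exceeded that on a wild type array in 4 of 4 comparisons for IAA29, in 2 of 4 for GH3.3 and in 1 of 4 for WES1. Wild type replicate 1 was the lowest array for IAA29 and GH3.3 and the highest for WES1. Over all tested probe sets that array was the lowest for 26.2% and the highest for 24.8%, so this is no trait of these genes. With that array left out, the log2 fold changes of the synthetase genes were -0.041 for GH3.3 and -0.01 for WES1, and that of IAA29 was 0.23. The root-mean-square distance between the centred profiles over the 4 arrays was 0.115 on the log2 scale between IAA29 and GH3.3, 0.194 between GH3.3 and WES1, and 0.244 between IAA29 and WES1. GH3.3 was thus closer to the repressor gene than to its fellow synthetase gene, a description over 4 arrays with no test.

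**Figure D2:**
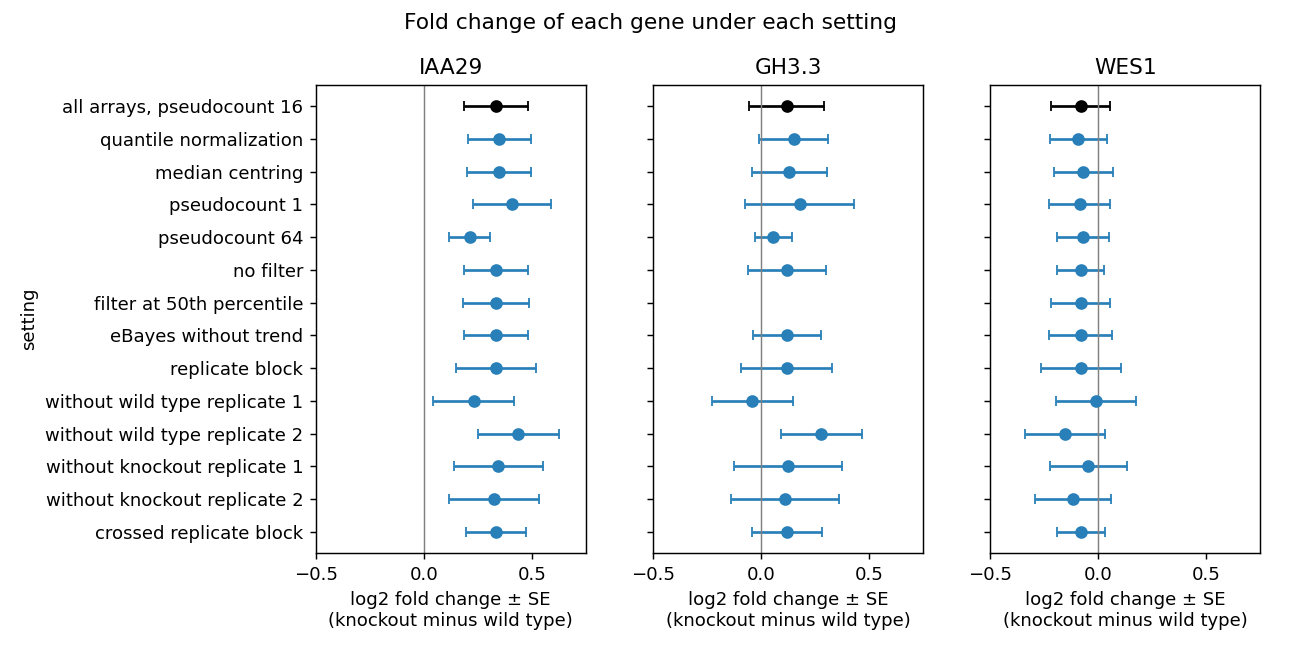
Log2 fold change, knockout minus wild type, with its SE (bars) for IAA29, GH3.3 and WES1 under each way of handling the data, one per row, with the value from all arrays in black at the top. IAA29 stays above 0 in every row, GH3.3 lies at -0.041 without wild type replicate 1, and WES1 ranges from -0.15 to -0.01; GH3.3 has no value at the stricter filter, which removes it.

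The other genes of the auxin pathway that the annotation names gave the same picture of small differences. The auxin lists held 303 entries, looked up only among probe sets with a single gene symbol. This found 26 auxin pathway genes, the 3 included, and 15 of them were bright enough to be tested. Most list entries were thus not read, and the 15 are no survey of the pathway. None of the 15 passed limma after adjustment, and 2, IAA29 and UGT74D1, had an unadjusted p under 0.05, against 5.24% of all tested probe sets. Of the 15, 7 were above 0 (46.7%) and the median log2 fold change was -0.02. Over all tested probe sets 46.0% were above 0 and the median was -0.01. The groups did not overlap for 5 of the 15, against a background of 31.9% of all tested probe sets. The knockout was higher for 4 of them and lower for 1, against backgrounds of 15.0% and 16.9%. No SAUR gene, auxin response factor gene or receptor gene of the lists was found by this lookup among probe sets with a single gene symbol.

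**Figure D3:**
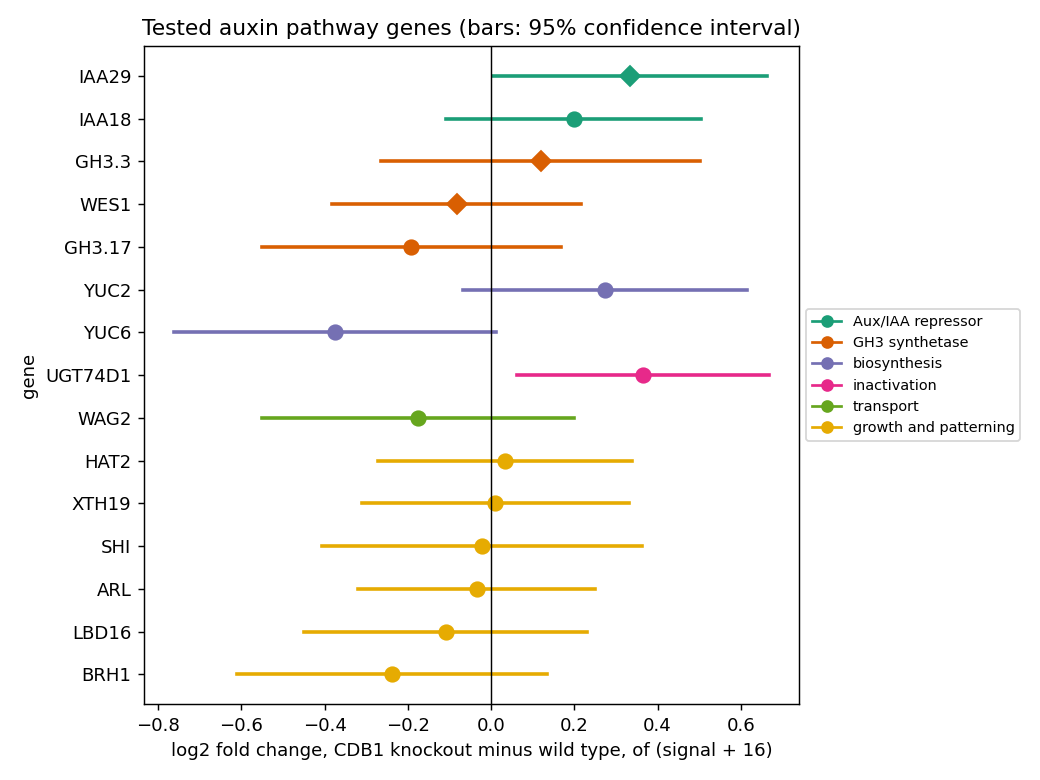
Log2 fold change of (signal + 16), knockout minus wild type, of the 15 tested auxin pathway genes (points, with IAA29, GH3.3 and WES1 as diamonds) with 95% confidence intervals (bars), coloured by role. The values run from -0.38 for YUC6 to 0.37 for UGT74D1, and only the intervals of IAA29 and UGT74D1, not adjusted for the number of probe sets, leave out 0.

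Among the Aux/IAA repressor genes, IAA18 was the only other one bright enough to test. IAA18 had signals of 269.4 and 256.8 in the knockout, against 241.7 and 213.5 in the wild type. Its groups did not overlap either, with the knockout higher, as for 15.0% of all tested probe sets. IAA18 had a log2 fold change of 0.20 (SE 0.139, limma adjusted p = 0.998). Wild type replicate 2 was its lowest array, where for IAA29 it was wild type replicate 1. The other 5 named Aux/IAA genes, IAA20, IAA30, IAA31, IAA33 and IAA34, had means below the floor. Their signals ran from 2.8 to 21.5 in the knockout and from 3.1 to 25.9 in the wild type, and for each the groups overlapped. IAA20 and IAA30 are known to lack the degron through which auxin triggers breakdown of other Aux/IAA proteins, and they are not the only Aux/IAA proteins without it.

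Among the GH3 genes, GH3.17 was tested beside GH3.3 and WES1. GH3.17, whose enzyme prefers glutamate as the amino acid it joins to auxin, had signals of 150.9 and 201.3 in the knockout, against 216.3 and 187.8 in the wild type. The groups overlapped through knockout replicate 2, and the log2 fold change was -0.19 (SE 0.163, limma adjusted p = 0.998). It ranged from -0.38 to -0.0019 with 1 array left out. GH3.1 read 5 and 7.3 in the knockout and 3.3 and 5.1 in the wild type, and GH3.9 read 11.8 and 10.2 in the knockout and 4.9 and 11.9 in the wild type. Both were below the floor on all 4 arrays.

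The 2 tested genes of auxin synthesis had log2 fold changes of opposite sign. YUC2, which encodes a flavin monooxygenase that makes auxin, had signals of 83 and 77.9 in the knockout, against 56.6 and 71.6 in the wild type (log2 fold change 0.27, SE 0.154, limma adjusted p = 0.998). YUC6, which encodes another enzyme of that family, had 23.6 and 32 in the knockout, against 44.8 and 36.6 in the wild type (log2 fold change -0.38, SE 0.176, limma adjusted p = 0.974). For neither did the groups overlap, and neither passed the test. Over all tested probe sets, 15.0% did not overlap with the knockout higher and 16.9% with it lower. On knockout replicate 1, YUC6 read close to the brightness floor of 19.5. YUC4 and YUC11 were below the floor, with signals of 0.8 to 9.6 in the knockout and 1.1 to 15.6 in the wild type.

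UGT74D1, which encodes a glucosyltransferase that can join glucose to auxin, had the largest positive log2 fold change of the 15. It read 192.1 and 195.8 in the knockout, against 140.9 and 153.3 in the wild type. The groups did not overlap, with the knockout higher, as for 15.0% of all tested probe sets. The log2 fold change was 0.37 (SE 0.138, limma adjusted p = 0.779). It ranged from 0.31 to 0.42 when 1 array was left out. UGT84B1, another auxin glucosyltransferase gene, was below the floor, at 1.7 and 7.2 in the knockout and 4.1 and 1.3 in the wild type. WAG2, which encodes a kinase that acts on the direction of auxin transport, read 54.4 and 50 in the knockout and 51.2 and 72.2 in the wild type. Its groups overlapped, and its log2 fold change of -0.18 was at 0.02 without wild type replicate 2.

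**Figure D4:**
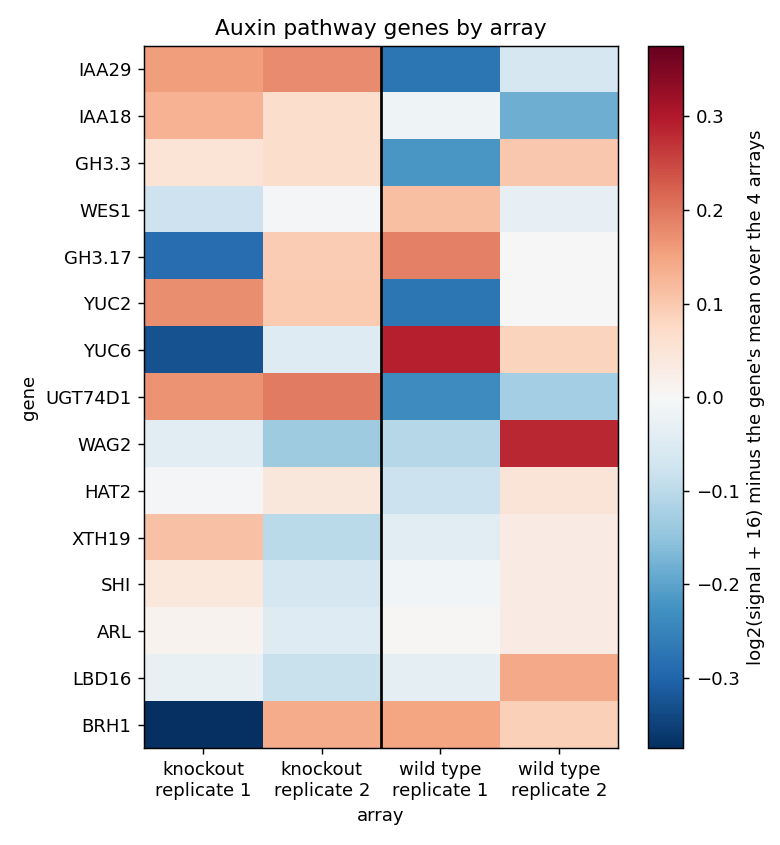
Log2(signal + 16) of the 15 tested auxin pathway genes on each array, knockout arrays left of the line and wild type arrays right of it, shown as the difference from the mean of each gene over the 4 arrays (red higher, blue lower). IAA29, GH3.3, YUC2 and UGT74D1 are lowest on wild type replicate 1 and above their means on both knockout arrays. YUC6, WES1, GH3.17 and BRH1 are highest on wild type replicate 1.

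Genes that act in auxin-related growth and patterning had log2 fold changes within 0.24 of 0. HAT2, an auxin-inducible homeodomain gene, read 177 and 183.8 in the knockout and 167.6 and 184.8 in the wild type (log2 fold change 0.03). XTH19, which encodes an auxin-inducible wall-loosening enzyme, had a log2 fold change of 0.01. LBD16, a regulator of lateral root formation, read 47.2 and 44.8 in the knockout and 46.9 and 55.1 in the wild type (log2 fold change -0.11). SHI, ARL and BRH1, regulators of growth that are less directly tied to auxin, were at -0.02, -0.03 and -0.24. BRH1, which responds to brassinosteroid, read 522.1 and 752 in the knockout and 756.8 and 727.3 in the wild type, and without knockout replicate 1 its log2 fold change was 0.02. LBD29 was below the floor. The groups overlapped for all 7 of these genes. Of the 15 tested genes, 6 changed sign when 1 array was left out: GH3.3, HAT2, XTH19, SHI, BRH1 and WAG2.

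IAA29 also responds to light through the PIF factors. Of the 23 entries on the list of light and shade response genes, only 2 were named and could be tested. FHL, which brings phytochrome A into the nucleus, read 193.6 and 148.6 in the knockout, against 217.6 and 200.2 in the wild type. GI, a clock and flowering gene, read 121.7 and 130.4 in the knockout, against 158.7 and 133.1 in the wild type. Both were lower on each knockout array, with log2 fold changes of -0.27 and -0.18 and limma adjusted p = 0.998 each. A part of light signalling in the value of IAA29 was not tested. The groups did not overlap, with the knockout lower, for 16.9% of all tested probe sets.

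The transcripts nearest to these genes in their course over the 4 arrays were also looked up. Likeness was measured as the root-mean-square distance between log2 values centred on their mean over the 4 arrays, over 8733 tested probe sets with a single gene symbol. For IAA29 the closest were AT2G16005, AT1G44790 and AT5G39020, at 0.0113, 0.0126 and 0.0248, and 316 probe sets lay within 0.1. AT1G44790 read 82.1 and 82.8 in the knockout, against 56.9 and 69.6 in the wild type. For GH3.3 the closest were NDP1, AT3G47080 and AT1G62950, at 0.0051, 0.0109 and 0.0114, and 1113 probe sets lay within 0.1. For WES1 they were AT4G31000, AT5G42050 and AT3G51370, at 0.0049, 0.0072 and 0.0087, and 2160 probe sets lay within 0.1. None of these 9 genes passed the limma test, and none is on the auxin lists.

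By position, the neighbours of the 3 genes on assembly TAIR10.1 had values of their own. The 2 protein-coding genes on either side of each were looked up after the values were known. Of these 12 neighbours, 7 are named by a probe set here and 6 were bright enough to be tested. AT4G27280, a gene for an EF-hand protein of the calcium-binding kind that lies 2 protein-coding genes from WES1, was the only one of the 6 that passed. Of all tested probe sets 0.320% passed in either direction, and 0.151% passed as lower. AT4G27280 fell to 563 and 629.4 in the knockout, against 1160.8 and 1252.4 in the wild type (log2 fold change -0.999, SE 0.132, limma adjusted p = 0.0104). That call was lost with no filter (limma adjusted p = 0.194) and without knockout replicate 1 (limma adjusted p = 0.0775). AT4G27270, the gene between WES1 and AT4G27280, read 40.8 and 40 in the knockout and 34.8 and 41.8 in the wild type (log2 fold change 0.06). WES1 itself, at -0.08, had a value far from that of the gene that fell. Near IAA29, AT4G32270 and AT4G32290 had log2 fold changes of 0.04 and -0.02, both with overlapping groups. AT4G27240, 2 protein-coding genes from WES1 on its other side, read 27.4 and 22.3 in the knockout and 17.8 and 21.8 in the wild type. Its log2 fold change was 0.19 (limma adjusted p = 0.998), and wild type replicate 1 lay below the brightness floor of 19.5. The groups did not overlap, with the knockout higher, as for 15.0% of all tested probe sets.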

How the data were processed

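The authors deposited 1 linear intensity per probe set and array, made with MAS5 per the submitters' processing notes. No source used here gives its version, settings or detection calls. The 64 control probe sets were set aside. The signals, used as deposited, were transformed to log2(signal + 16). Probe sets with a mean under the 30th percentile were left out. The knockout was set against the wild type in limma 3.58.1 under R 4.3.3 (eBayes with an intensity trend, two-sided). The fit was tried on data simulated under its own model, so that trial says nothing of structure shared between arrays. Precision is limited by the number of arrays. No replicates were copies: 246 of 22746 signals were equal in the knockout and 178 in the wild type.

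Of the 22746 probe sets, 13513 carry 1 gene symbol in the platform annotation, 503 several, and 8730 none (unnamed here). Current symbols for 13436 probe sets came from RefSeq (TAIR10.1) by gene number. No coordinates are printed, as no source used here names the build behind the array.

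The members and the gene lists were chosen with earlier results of these data known. The rule named the 3 members, every tested auxin list gene with a single symbol (the brightest probe set per gene), the 3 probe sets nearest in profile to each member, and marker and light response genes of the lists. An Aurora kinase gene that shares the name AUR3 with a list entry was removed. Neighbouring genes were added after the values were seen. Alternatives were other normalizations, pseudocounts, filters and variance models, a replicate block, and leaving out each array. Both groups have replicates numbered alike, but the labels tie the numbers to no common batch.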

Additional observations from a re-analysis of the deposited data

How the results depend on the processing

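Over 12 alternatives the log2 fold change of IAA29 stayed above 0 (0.21 to 0.44, limma adjusted p 0.691 to 1) and that of WES1 below 0 (-0.15 to -0.01). GH3.3 was measured in 11, because the filter at the 50th percentile removed it, and ranged from -0.041 to 0.28. It was at -0.041 only without wild type replicate 1, which read 25.6 against 35.9 on wild type replicate 2. None of the 3 passed the threshold under any of these. The count of called probe sets, 51, was 20 to 87 with 1 array left out, 89 with the replicate block and 0 in limma with no filter, where 1081 had an unadjusted p under 0.05. The number of auxin pathway genes above 0, 7 of 15, was 4 to 8 with 1 array left out and 12 of 26 with no filter, which admits the dim genes. Same-numbered replicates deviated opposite ways (correlation across probe sets -0.301). Whether arrays of the same number share a batch was not tested. With the replicate block the SE of IAA29 was 0.187, and none of the 3 calls changed. A crossed pairing, chosen after seeing the data, gave 195 calls, none of them an auxin pathway gene. With 2 arrays per group, changes as small as those of these genes could not be separated from the spread between arrays.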
